A study of Mus musculus with 4 samples.

Results

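The satellite-like repeat genes of the mouse form a family of predicted genes, of which 8 are described here: Gm10800 and Gm10801 on chromosome 2, Gm10717, Gm10719, Gm10721, Gm10722 and Gm11168 on chromosome 9, and Gm21738 on chromosome 14. They were taken by symbol from the 17259 genes of the deposited table, and the choice rested on their measured values, since the members had been selected on normalised counts that stood almost only in libraries of isolated mitochondria, as well as on their near-identical sequence. The contrast between fractions is therefore given for these genes as a description. Their likeness in sequence and their levels in mitochondria, also per length, are descriptions too. The agreement between replicates was not part of the choice.

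Satellite DNA consists of short units repeated head to tail over long stretches. In mice the AT-rich major satellite fills the pericentromeric heterochromatin, the compact chromatin beside each centromere, where SUV39H enzymes methylate lysine 9 of histone H3 and HP1 proteins (the Cbx genes) bind that mark. Satellite RNA is known mostly as nuclear RNA that stays near the repeats it is copied from, and symbols beginning with Gm are given to mouse genes that were predicted by gene-finding programs, so that no function is given here for any of the 8.

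RNA had been sequenced from wild-type (WT) mice, whose brown adipose tissue (fat that produces heat) had been fractionated. For isolated mitochondria there were 2 libraries, and for the non-mitochondrial fraction there were also 2. The treatment labels call the second group tissue minus mitochondria, whereas its titles read total, and the study's supplement also speaks of total lysates of this tissue. The group is called non-mitochondrial here after the treatment label, but if mitochondria had not been removed these libraries hold the whole tissue. Age, sex and the number of animals behind a library are not given in the sources used here, so that limma's and edgeR's p-values measure the spread between libraries, which may be technical. A total RNA kit was used, which takes up RNA with and without a poly(A) tail. The methods name an on-column DNase digestion for RNA of isolated mitochondria and a fragmentation time adjusted for these samples. They also name a treatment of the mitochondria with digitonin and RNase A before RNA isolation, in a protocol described for hearts. Whether brown fat was treated alike is not given there.

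The unit of the deposited table is a normalised count, a read count divided by a size factor of the library. For mitochondria the size of 1 read could be recovered, at 8.32 units (replicate 1) and 6.90 units (replicate 2), which gave totals of 26288868 and 24910433 reads. The non-mitochondrial libraries summed to 1590096 and 1905303 normalised counts, and their reads per unit are unknown. Genes of the mitochondrial genome took 95.3% and 95.5% of the mitochondria libraries and 51.1% and 59.3% of the others. Of 8 brown adipocyte markers 7 had counts in all 4 libraries, and Adrb3 had 3 and 0 reads in mitochondria. Ucp1, the uncoupling protein of these cells, stood at 1290 and 3554 normalised counts in the mitochondria libraries, against 4819 and 4185. The 3 liver markers were listed at 7747 and 525 normalised counts in sum in mitochondria, against 132 and 4.

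The members sit at 3 loci of the GRCm38 build. On chromosome 9 the 5 members lie on the plus strand within 32368 bp, in the order Gm10722 (chr9:3000922-3002330), Gm11168 (chr9:3003346-3006948), Gm10721 (chr9:3013140-3014344), Gm10719 (chr9:3017408-3021593) and Gm10717 (chr9:3025417-3033289). Only 1 of the 2853 annotated genes of chromosome 9, Gm26870, starts before them, and since mouse chromosomes are numbered from the centromere this cluster stands at the centromeric end of the annotated chromosome. Gm10801 (chr2:98662237-98664083, plus strand) and Gm10800 (chr2:98666547-98667301, minus strand) lie in 5065 bp of chromosome 2, and 2047 of its 3803 annotated genes (53.8%) start before them. Gm21738 (chr14:19415857-19418930, minus strand) has 347 of 2532 annotated genes (13.7%) before it. The term pericentromeric thus matches the annotated position of the chromosome 9 members and not that of the members on chromosomes 2 and 14, and the family is called satellite-like for its sequence.

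**Figure D1:**
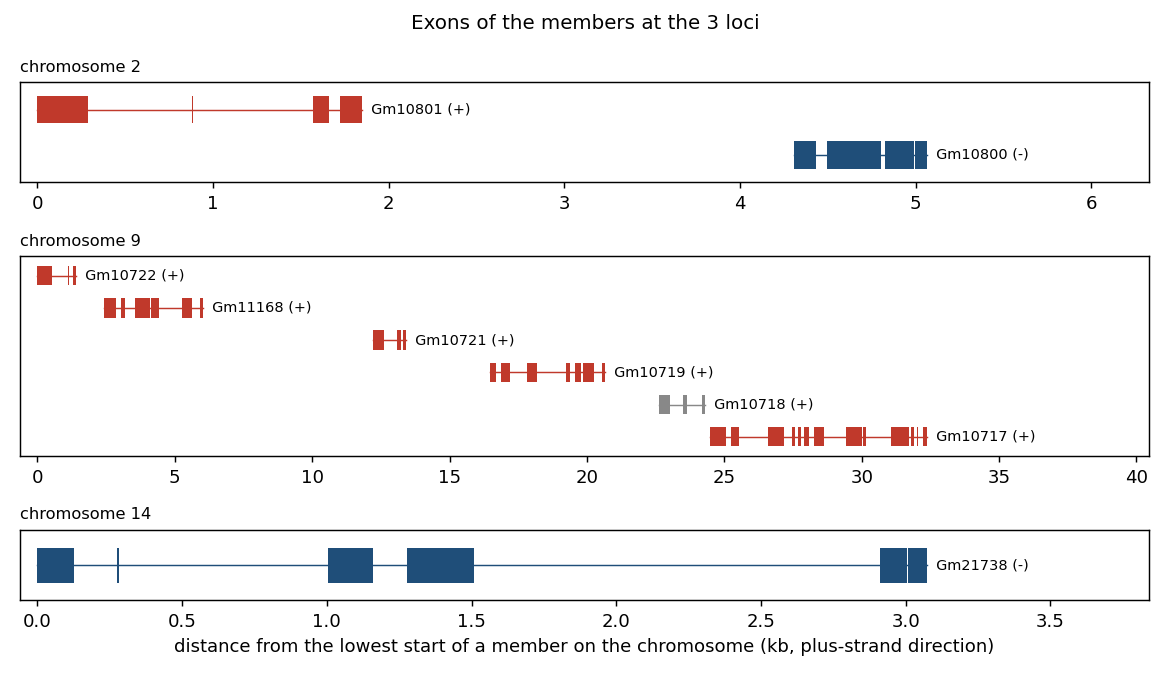
Exons (boxes) and spans (lines) of the 8 members and Gm10718 at the 3 loci, with other annotated genes left out, by distance in kb from the lowest start of a member on each chromosome. Genes of the plus strand are red, genes of the minus strand blue, and Gm10718, a listed gene of the same cluster that is no member, grey. The 5 chromosome 9 members stand in a row on the plus strand over 32368 bp.

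All 8 genes carry the biotype protein_coding, and 100% of their exon bases are annotated as coding, with no UTR. Their gene models are unlike those of ordinary genes. The 21 annotated transcripts are 504 to 684 bases long, each a multiple of 3, and 15 of them begin with a start codon. Of 74 introns, 28 are under 30 bases, 20 of these are 4 bases long and 1 is a single base, while the longest intron has 1400 bases. Of 88 distinct exons, 14 are under 10 bases. The transcripts hold 34.2 to 35.9% G and C, whereas the median of all annotated transcripts was 49.2% and 1.81% of them were at or under 35.9%.

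The repeat is visible in the exons themselves. Gm10722 holds successive copies of a unit of 234 bases in 1 exon, and the following pair is shown because it makes the tandem structure of the family readable. Unit 1 is chr9:3000962-3001195 and unit 2 is chr9:3001196-3001429, both on the plus strand of GRCm38, and capitals mark the 12 positions at which the copies differ (94.9% identity).
Gm10722 unit 1: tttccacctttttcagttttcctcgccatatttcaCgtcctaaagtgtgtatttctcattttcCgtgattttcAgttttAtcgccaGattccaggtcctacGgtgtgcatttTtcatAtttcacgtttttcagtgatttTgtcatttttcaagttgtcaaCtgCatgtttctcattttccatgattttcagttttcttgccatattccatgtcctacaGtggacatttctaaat
Gm10722 unit 2: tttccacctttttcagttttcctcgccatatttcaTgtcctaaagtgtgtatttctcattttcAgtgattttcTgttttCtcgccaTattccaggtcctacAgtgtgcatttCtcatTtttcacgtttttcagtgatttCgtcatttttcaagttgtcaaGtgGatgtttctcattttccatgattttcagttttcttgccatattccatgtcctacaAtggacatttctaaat

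A stretch of 90 bases was searched for in every member, and the one that matched best over all 8 was kept. Its likeness comes from that search and does not measure how close the 3 loci are as a whole. The stretch is identical in Gm10717, Gm10719, Gm10721 and Gm10722, so that 1 of these 4 is printed. The stretches are chr9:3001296-3001385 (Gm10722), chr9:3006382-3006471 (Gm11168), chr14:19417271-19417360 on the minus strand (Gm21738), chr2:98666557-98666646 on the minus strand (Gm10800) and chr2:98662241-98662330 (Gm10801). Capitals mark bases that differ from the most frequent base of the 8 members, with 1 such base in Gm11168 and Gm21738 and 3 in each chromosome 2 member.
Gm10722: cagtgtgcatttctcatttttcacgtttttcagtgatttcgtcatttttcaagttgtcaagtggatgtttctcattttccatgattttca
Gm11168: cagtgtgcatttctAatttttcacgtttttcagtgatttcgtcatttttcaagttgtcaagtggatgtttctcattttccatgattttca
Gm21738: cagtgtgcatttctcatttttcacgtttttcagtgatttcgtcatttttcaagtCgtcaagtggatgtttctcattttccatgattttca
Gm10800: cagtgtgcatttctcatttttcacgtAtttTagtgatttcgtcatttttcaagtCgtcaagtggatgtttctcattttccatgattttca
Gm10801: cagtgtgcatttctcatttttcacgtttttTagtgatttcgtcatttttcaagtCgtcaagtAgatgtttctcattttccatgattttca

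When each transcript was shifted along itself, 14 of 21 matched themselves best at a shift of 234 bases and 5 at 237 bases. The best shift was 225 bases for Gm10800 and 231 bases for Gm10801. At the best shift 52.8 to 69.7% of positions held the same base, while the median over all shifts was 31.3%. A smaller peak stood at a shift of 58 bases, with 47.3% for Gm10801, 51.2% for Gm10800 and 52.4 to 58.7% for the transcripts of the other 6 members. No reference satellite sequence was used here, so that the unit was not compared with one.

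**Figure D2:**
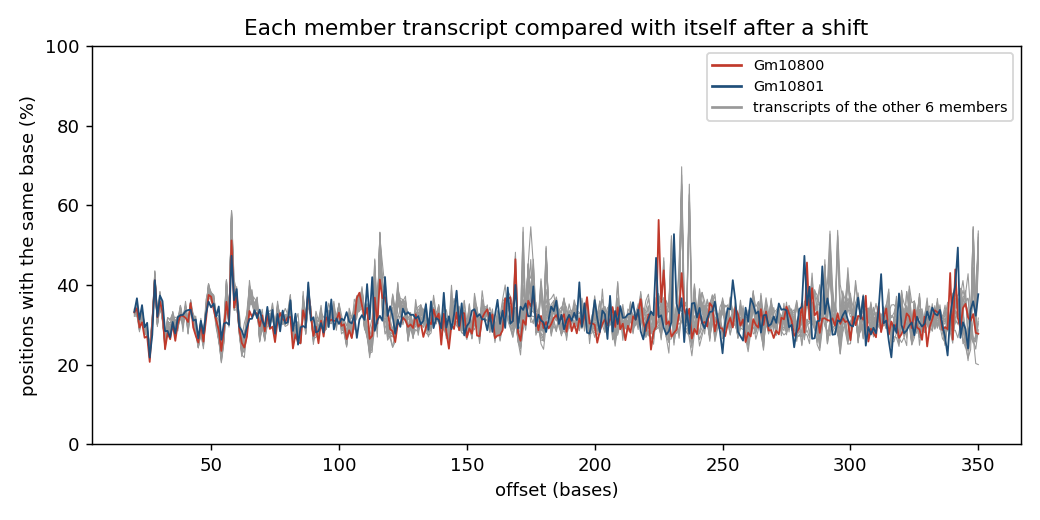
Share of positions (%) at which a member transcript holds the same base after a shift by the given offset in bases, with 1 line per annotated transcript of the 8 members. Grey lines peak at 234 or 237 bases, and the lines of Gm10800 and Gm10801 peak at 225 and 231 bases.

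All 28 pairs of members matched each other at 90% identity or more over at least 50 bases, as their choice as near-identical genes entailed. Within chromosome 9 the longest matches ran over 651 to 688 bases, and Gm10800 matched these 5 members over 649 to 683 bases at 90.2 to 93.4% identity. Gm10801 matched Gm10717 over 512 bases (90.2% identity) and Gm10721 over 509 bases (91.6%), and the other 5 members, its neighbour Gm10800 included, over 102 to 104 bases. Of all other annotated genes 5 matched a member, namely Gm10715, Gm10718, Gm10720, Gm17535 and Gm26870, and of these Gm10718 is in the table. No member matched a transcript of the mitochondrial genome at these limits, whereas 17 other listed nuclear genes did. Gm26870 (chr9:3000282-3038313) is a lincRNA gene on the opposite strand of the whole chromosome 9 cluster. Its exons share 218 of 1800 exon bases with Gm10719, 275 of 669 with Gm10721 and 235 of 1892 with Gm11168, and whether counting used the strand is not given in the sources used here.

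Reads with several positions or several genes had been left out of the counts, so that a member could only be counted where its sequence differs from its relatives. For windows as long as a read (75 bases), 97.2% of those of Gm10801 and 89.8% of those of Gm10800 occurred in no other annotated gene. The share was 78.2% for Gm21738 and 60.4 to 65.0% for Gm10717, Gm10722 and Gm11168. It fell to 43.8% for Gm10719 and 24.5% for Gm10721. At 30 bases, the shortest trimmed read that was kept, the shares lay between 10.4% and 62.9%. No gene outside the members and their 5 relatives shared a window at either length. The windows were compared with annotated transcripts only, so that copies of the repeat outside genes are not covered, and RNA from positions that relatives share is not in the counts.

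**Figure D3:**
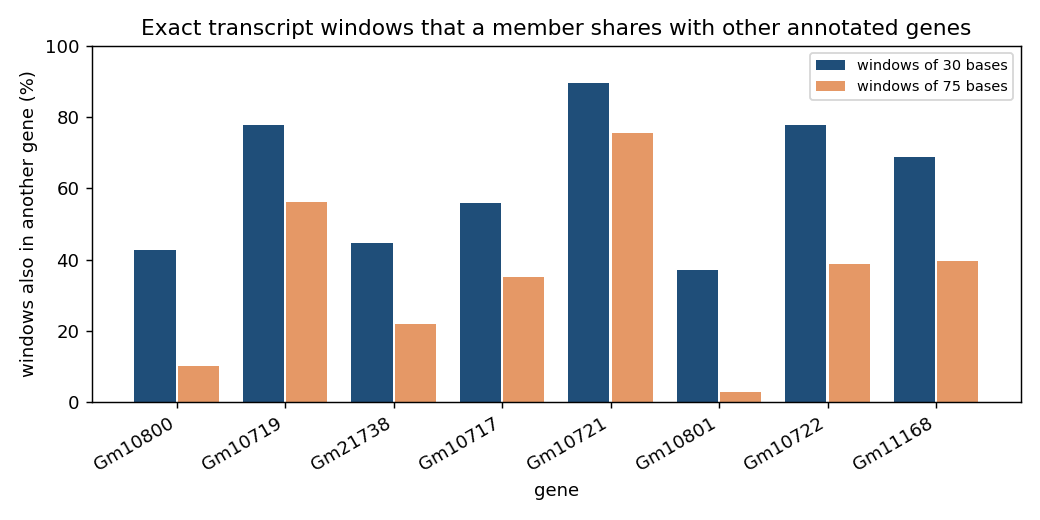
Share of the distinct transcript windows of each member (%) that also occur in another annotated gene, for windows of 30 and of 75 bases. At 75 bases the share lies between 2.79% for Gm10801 and 75.5% for Gm10721.

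Gm10800 held the most reads of the family in both mitochondria libraries. Its normalised counts were 2663 and 1256 in mitochondria replicates 1 and 2 (320 and 182 reads) and 1 in each non-mitochondrial library. The mitochondria mean of 1959.5 exceeded the other mean by a ratio between 1306 and 3919, the range that the rounding of the value 1 allows with the scaling as deposited. As CPM over all genes (counts scaled to a common library total) it stood at 12.2 and 7.31 against 0.629 and 0.525, a ratio between 11.3 and 33.8. Gm10801, its neighbour, had 291 and 179 normalised counts (35 and 26 reads) in mitochondria and was listed at 0 in both other libraries. Both chromosome 2 genes were thus higher in both mitochondria libraries than in the other fraction, as their choice entailed.

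Each of the chromosome 9 members had fewer reads than Gm10800. Gm10719 had 632 and 221 normalised counts (76 and 32 reads) in mitochondria replicates 1 and 2. Gm10717, the longest member, had 483 and 117 (58 and 17 reads). Gm10721, the member with the smallest share of windows of its own, had 383 and 145 (46 and 21 reads). Gm10722 and Gm11168 had the fewest reads, with normalised counts of 216 and 90 (26 and 13 reads) for Gm10722. Gm11168 had 208 and 117 (25 and 17 reads). All 5 were listed at 0 in both non-mitochondrial libraries, so that no fold of the normalised counts is given, and replicate 1 was the higher mitochondria library for each.

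Gm21738, the chromosome 14 member, had 558 and 124 normalised counts (67 and 18 reads) in mitochondria and was listed at 0 in the other fraction. The difference between its mitochondria libraries was the widest of the 8, at a ratio of 4.50 in normalised counts. What lay behind this difference between libraries of isolated mitochondria was not tested. In bulk samples in general, fewer cells of a type and less RNA per cell cannot be told apart.

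**Figure D4:**
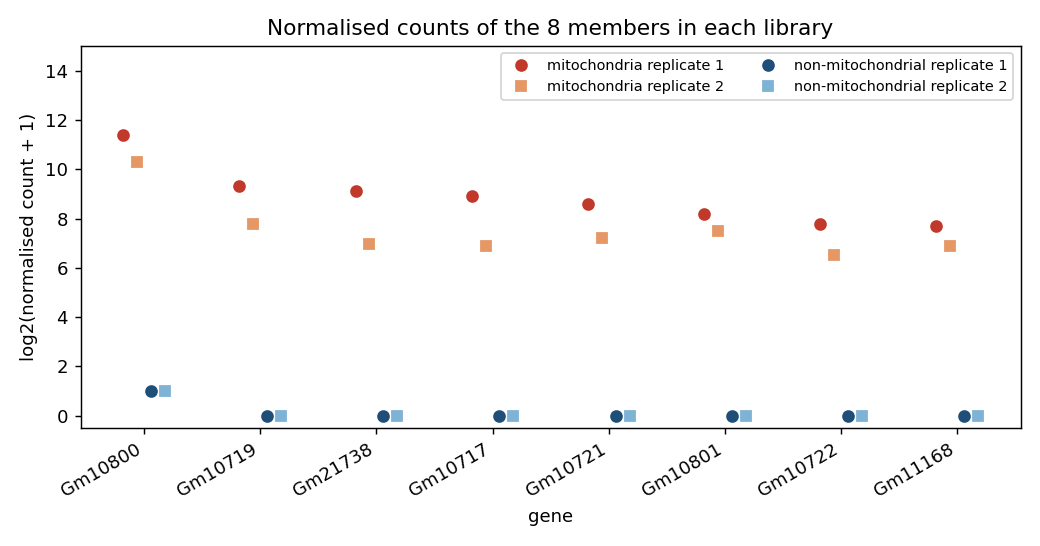
Normalised counts of the 8 members in each of the 4 libraries, on a log2(value + 1) scale, ordered by mitochondria replicate 1. The mitochondria libraries (red and orange) lie above the non-mitochondrial libraries (blue) for every gene, and the latter are at 0 on this scale for 7 genes and at 1 for Gm10800.

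Across all genes, limma with Benjamini-Hochberg adjustment called 66 of 8215 genes higher in mitochondria at an adjusted p under 0.05, which is 0.803% of those tested, and 362 lower (4.41%). All 8 members were among the 66, as their choice entailed, and nothing is read from that count. Their log2 fold changes on the log2(value + 1) scale ran from 7.14 (SE 0.63) for Gm10722 to 9.84 (SE 0.58) for Gm10800, and for the 7 genes at 0 they depend on the added 1 and are no bound. The adjusted p was 0.0249 for 6 members, 0.0354 for Gm10717 and 0.0385 for Gm21738 (limma). Gm10718, a relative in the chromosome 9 cluster, was not among the 66. It had 341 and 48 normalised counts against 0 and 1 in the other fraction and an adjusted p of 0.138 (limma). EdgeR's quasi-likelihood test on reads called it higher together with the 8. The calls rested on both non-mitochondrial libraries: leaving out either of them left 0 of 8 members called, with lowest adjusted p of 0.439 and 0.446 (limma), although all 8 had an unadjusted p under 0.05. In both cases 0 of the 8215 genes were called, and the members' log2 fold changes stayed at 7.14 to 9.84. With a pseudocount of 10 limma called 2 of 8. With the replicate number as a block it called 0 of 8, and 0 of all genes tested.

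The members stood above the other fraction under other scalings as well. As CPM over all genes, the 8 members summed to 24.8 and 13.1 in mitochondria. In the other fraction their listed values summed to 0.629 and 0.525, which is the 1 unit of Gm10800 in each library. The lowest single member value in mitochondria was 0.523 CPM, that of Gm10722 in replicate 2. A value listed at 0 in the non-mitochondrial libraries stands for at most 0.314 and 0.262 CPM, since values under 0.5 units were rounded to 0. The 1 of Gm10800 stands for at most 0.943 and 0.787 CPM. The sums in the other fraction take listed values as exact, so that they are no upper bound. Both fractions thus remained apart for every member on this scale, which counts the mitochondrial RNA in the total, but for Gm10722 the distance was small. The members were chosen on this contrast, so that the gap is a description. How many of all genes show such a gap was not counted. Against nuclear genes without a match to mitochondrial transcripts, the family took 1.10% and 0.483% in mitochondria. In the other fraction the listed values gave 0.000136% and 0.000138%, which rest on 1 unit in each library and are no upper bound either. The members' lowest log2 fold change was 0.80 with CPM over all genes, and it was above 0 under each other scaling that was tried.

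Levels of different members can be compared only per length. Per kb of exon, Gm10800 had a mean of 2969 normalised counts in mitochondria (4035 and 1903). Gm21738 followed with 501 (819 and 182), Gm10801 with 466 (577 and 355) and Gm10721 with 395 (573 and 217). Gm10719 with 237 (351 and 123) and Gm10722 with 235 (332 and 138) came next. Taken across the libraries, the ranges of Gm21738 and Gm10721 overlap those of each other and of the other 3 genes just named, whereas both libraries of Gm10801 lay above both of Gm10719 and of Gm10722. Within each library, Gm21738, Gm10801 and Gm10721 each lay above Gm10719 and Gm10722, and counting error was not tested for this order. Gm10800 stood above every other member in both libraries. Gm11168 with 85.9 (110 and 61.8) and Gm10717 with 77.8 (125 and 30.3) were lowest and overlap each other. By this measure Gm10800 ranked 56 in mitochondria among 17190 nuclear genes without a match to mitochondrial transcripts, and the others ranked 107 (Gm21738) to 398 (Gm10717).

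Counted per sequence that can be told from the relatives, the order shifts. Gm10800 had 95.4 reads over both mitochondria libraries per 100 windows of its own, and Gm10721 came next with 45.9. Gm21738 had 18.5, Gm10719 and Gm10801 had 14.6 each, and Gm10722 had 11.6, but the order of these 4 differed between the libraries. In replicate 1 Gm21738 led them with 14.6 and Gm10801 had 8.37, and in replicate 2 Gm10801 led with 6.22 and Gm21738 had 3.92. Gm10717 and Gm11168 again had the fewest, with 3.69 and 3.64. Gm10800 was the highest member on both scales.

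Agreement between the mitochondria libraries was no part of the choice and could be tested. They differed in amount by more than counting error. Of other nuclear genes, taken singly, 16.8% differed at least as far in the same direction as the members' sum (on the scale described with them below). Sums vary less from counting than genes with few reads, so that this share does not show how usual the difference is. The members summed to 653 reads in replicate 1 and 326 in replicate 2, which is 24.8 CPM (95% Wilson interval 23.0 to 26.8) and 13.1 (11.7 to 14.6) CPM of all reads, a mean of 19.0 ± 8.31 (SD, n = 2). The ratio of the shares was 1.90 (two-sided Fisher exact test, p = 3.02e-22), where the test compares these 2 libraries and covers counting error only. Every member had the larger share of reads in replicate 1, at ratios from 1.28 (Gm10801) to 3.53 (Gm21738). Without Gm10800 the ratio was 2.19 (Fisher exact test, p = 3.47e-16), and as a share of nuclear reads without a mitochondrial match, 1.10% (1.02 to 1.19%) against 0.484% (0.434 to 0.539%), it was 2.28 (Fisher exact test, p = 2.92e-36).

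The proportions of the members within the family were compared between the same libraries, member by member. Gm10800 made up 49.0% (95% Wilson interval 45.2 to 52.8%) of the family's reads in replicate 1 and 55.8% (50.4 to 61.1%) in replicate 2. Gm21738 made up 10.3% (8.16 to 12.8%) and 5.52% (3.52 to 8.56%), and Gm10717 8.88% (6.93 to 11.3%) and 5.21% (3.28 to 8.19%). These 3 genes had unadjusted Fisher exact p-values of 0.0491, 0.0155 and 0.0421. After Benjamini-Hochberg adjustment over the 8 tests, 0 of 8 members passed 0.05 and the lowest adjusted p was 0.124, for Gm21738. Gm10722, with 3.98% and 3.99%, kept its share most closely.

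**Figure D5:**
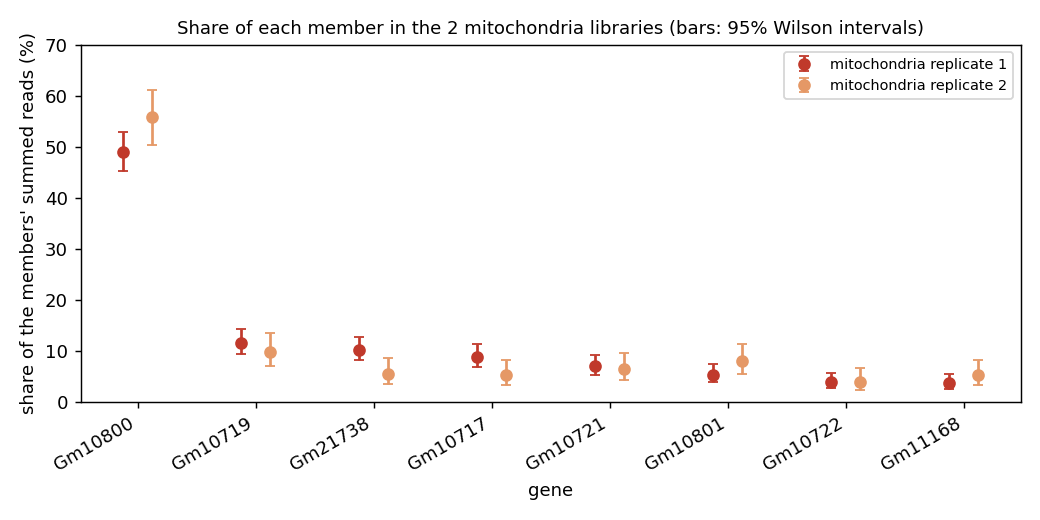
Share of each member (%) in the summed reads of the 8 genes, in mitochondria replicate 1 (red) and replicate 2 (orange), with 95% Wilson intervals that cover counting error only. Gm10800 holds 49.0% and 55.8%, and the intervals of the 2 libraries overlap for every member.

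Summed by locus, the chromosome 2 members made up 54.4% of the family's reads in replicate 1 (355 reads) and 63.8% in replicate 2 (208 reads), with an adjusted p of 0.0149 (Fisher exact test, 3 loci). The chromosome 14 locus is Gm21738 alone, and its test is the one given above (unadjusted Fisher exact p = 0.0155), with an adjusted p of 0.0233 over 3 tests and 0.124 over 8. The chromosome 9 members held 35.4% (231 reads) and 30.7% (100 reads), with an adjusted p of 0.152 that did not pass. The excess of replicate 1 was 1.62-fold on chromosome 2, 2.19-fold on chromosome 9 and 3.53-fold on chromosome 14.

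Other RNAs moved between the same libraries, and their part in the difference was not tested. Among 1106 other nuclear genes with at least 20 reads over both mitochondria libraries and no mitochondrial match, the share in replicate 1 over that in replicate 2, with 0.5 reads added to each, had a median of 0.746 (5th to 95th percentile 0.205 to 11.2). The family's ratio on this scale was 2.27, and 186 of these genes (16.8%) were at or above it. That ratio is taken from a sum over the members, whereas the genes are single and can hold as few as 20 reads. Low counts widen the spread of single genes, so that the share does not show how usual the family's ratio is. The 8 members lay between 1.52 and 4.15, all above that median.

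Of the RNAs that stay in the nucleus, Malat1, a long non-coding RNA of nuclear speckles, had 658 reads in mitochondria replicate 1 and 117 in replicate 2. Neat1, the scaffold RNA of paraspeckles, had 80 and 12, and Kcnq1ot1, an imprinted antisense RNA, 14 and 3. Rn7sk, the small nuclear RNA that holds P-TEFb inactive, had 180 and 151, and Meg3 had 1 and 2. Malat1 stood at 5476 and 807 normalised counts in mitochondria against 14512 and 14128 in the other fraction, and Meg3 at 8 and 14 against 23 and 21. All 5 had counts in both non-mitochondrial libraries, and none of the 5 was called by limma or edgeR (1 at an unadjusted p under 0.05 in limma, beside 18.1% of all genes tested), which beside the 0.803% higher and 4.41% lower over all genes (limma) says nothing particular about them, with a median log2 fold change of -1.87 beside -1.23 for all genes tested.

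Markers of other cell types moved between the mitochondria libraries as well. The 3 liver markers (Alb, Apoa1 and Serpina1a) summed to 931 reads in replicate 1 and 76 in replicate 2, and the 4 skeletal muscle markers to 303 and 107, in each case with all genes of the list at the larger share in replicate 1. The 8 brown adipocyte markers summed to 331 and 1085 reads, with 1 of 8 at the larger share in replicate 1, and the 2 haemoglobin genes to 21 and 50. Of the endothelial markers, Pecam1 had 2 and 0 reads and Cdh5 5 and 0. Limma called 0 of these 19 genes (5 at an unadjusted p under 0.05, beside 18.1% of all genes tested). EdgeR called the 3 liver markers and the myosin gene Myh4 higher in mitochondria, and Adrb3, Dio2, Pecam1 and Cdh5 lower, beside 1.64% higher and 4.02% lower over all genes. Their part in the replicate difference of the family was not tested.

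The table lists 18 other genes within 1 Mb of a member besides Gm10718. Of the 8 that were tested, 0 were called higher in mitochondria and 1 was called lower, Mrps16, a mitochondrial ribosomal protein, with a log2 fold change of -4.41 and 0 reads in both mitochondria libraries (limma, adjusted p = 0.0277). Their median log2 fold change was -1.27 beside -1.23 for all genes tested. The highest of the 8 were Rtraf at 0.20, Cwf19l2 at 0.06 and Ecd at -0.40, and next to Mrps16 the lowest were Fam149b at -3.77 and Alkbh8 at -2.84, none of which passed. At an unadjusted p under 0.05 limma had 0 higher and 2 lower, and edgeR called none of the 8, Mrps16 included. Beside the 0.803% called higher and 4.41% called lower over all genes (limma), these counts say nothing particular about the loci.

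The factors of pericentromeric heterochromatin include the enzymes and binding proteins of satellite chromatin. All 24 genes of that list were in the table, 17 were tested, and limma called 0 higher and 2 lower (0 and 5 at an unadjusted p under 0.05), while edgeR called none, those 2 included. Over all genes tested limma called 0.803% higher and 4.41% lower, and with 17 genes the count of 0 higher is no result about these factors. The 2 were Setdb1, which methylates lysine 9 of histone H3, at -5.22 (30 and 44 normalised counts in the other fraction) and Kmt5c, which methylates lysine 20 of histone H4, at -5.21 (42 and 31), both with 0 reads in mitochondria (limma, adjusted p = 0.0249 for each). Next lowest was Ehmt2 at -4.02, which did not pass. Among the highest were Lrwd1 at 1.29 and the maintenance DNA methyltransferase Dnmt1 at 0.16, neither of which passed. The list's median was -1.15 beside -1.23 for all genes tested, and 7 of its genes had no read in either mitochondria library. The HP1 genes Cbx1, Cbx3 and Cbx5 had 1 to 15 reads in each mitochondria library.

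Few genes of the table had the profile by which the members were picked. With at most 1 normalised count in both non-mitochondrial libraries and at least 3 reads in both mitochondria libraries, 23 of 17259 genes (0.133%) were found. Of these 21 had no match to mitochondrial transcripts, and the 8 members made up 38.1% of the 21. Gm10718 was another of the 21. The genes whose profile over the 4 libraries lay nearest to the members' median, by Euclidean distance on log2(value + 1), were Gm20644 (1.73), Gm10718 (1.80), Gm50174 (1.97), 4932416K20Rik (1.99) and Gm11512 (2.07), where the members' own distances ran from 0.201 to 4.39 with a median of 0.802. Gm20644 stood at 133 and 173 normalised counts and 4932416K20Rik at 108 and 117 in the mitochondria libraries, both with 0 elsewhere, and unlike the members both were higher in replicate 2. Gm50174 and Gm11512 are pseudogenes that match mitochondrial transcripts.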

How the data were processed

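The authors deposited 1 table of gene-wise signal, read counts divided by a size factor per library and rounded (normalised counts), for 2 mitochondria and 2 non-mitochondrial libraries. The submitters' processing notes name Trimmomatic 0.39, STAR 2.7.10a, featureCounts 2.0.2 and DESeq2 1.30.1, and the methods name other versions of STAR, featureCounts and DESeq2, build GRCm38, and the exclusion of reads with several positions or genes. To within about the rounding of the table, 100.0% of the low values of both mitochondria libraries (8348 and 7856 values) were whole numbers of reads. Reads were recovered for neither other library.

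Genes with a mean of at least 10 (8215) were compared as log2 of the value plus 1 with limma 3.58.1 in R 4.3.3, with an adjusted p under 0.05 as a call, and edgeR 4.0.16 on reads served as an alternative, beside other pseudocounts, filters and scalings and single libraries left out. Shares were compared by Fisher exact tests (scipy 1.17.1, Python 3.11.15). Intervals are 95% Wilson intervals. Scripts were tested on simulated data. Sequences and gene models come from GENCODE M21, whose coordinates 99.1% of the listed genes shared, and were matched with BLAST 2.17.0. The RefSeq tables held 0 of the 8 members. The printed sequences are stretches of its reference transcripts that lie within 1 exon.

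Named genes were the members, every listed gene within 1 Mb, related and rDNA-overlapping genes, nuclear RNAs, heterochromatin factors (3 highest and 3 lowest of lists over 7 genes) and the 5 nearest profiles. For 1 gene that this rule names, no value is reported here. Members and lists were chosen with earlier results of these data known.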

Additional observations from a re-analysis of the deposited data

How the results depend on the processing

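Over all genes, 66 were called higher and 362 lower in mitochondria. Higher calls were 143 without a filter, 31 with CPM over all genes and 135 with edgeR 4.0.16 on recovered reads (deposited values taken as reads in the other fraction). Lower calls were 3587 without a filter, 11 with a mean of at least 50, 1 with a pseudocount of 10, 7968 with CPM over all genes and 7496 with CPM over nuclear genes. The median log2 fold change of all genes moved from -1.23 to -4.25 with CPM over all genes, -4.01 with CPM over nuclear genes and -0.90 with TMM factors. Leaving out 1 library gave 0 to 622 higher and 0 to 3864 lower calls, and 0 to 8 members called, with 0 in each count where a non-mitochondrial library was left out (limma; 500 and 493 genes at an unadjusted p under 0.05). The lone library of a group is then assumed to vary like the other group. Members called were 2 with a pseudocount of 10 and 8 under the other planned scalings, filters and edgeR.

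With the replicate number as a block, limma called 0 genes higher, 0 lower and 0 members (adjusted p = 0.158 for all 8, each with an unadjusted p under 0.05), with 944 genes at an unadjusted p under 0.05. Replicates with the same number deviated from their group means with a correlation of 0.112 over the genes, and no label says that they share an animal or a day, so that calls lost under the block are not described as weaker effects.

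The share ratio between the mitochondria libraries ran from 1.81 (nuclear genes) to 2.28, where the denominator without mitochondrial matches and the sum with Gm10718 (1.98) were chosen after seeing the data. By chromosome, 2 of 3 loci passed in composition where 0 of 8 members did, but the chromosome 14 locus is Gm21738 alone, whose test is the same in both and passes only when adjusted over 3 tests in place of 8. The causes of the other shifts were not tested. Depth limits the single members, with 13 to 320 reads per mitochondria library, and the unknown reads per unit limit the other fraction.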

Other observations

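Of 7 symbols of genes that overlap ribosomal DNA sequence, 4 were listed and 3 tested, with a median log2 fold change of 0.16 beside -1.23 for all genes tested. Gm23935 stood at 2006 and 2112 normalised counts (mitochondria) against 3106 and 3703. CT010467.1 had 907 and 594 against 642 and 670. Lars2, the mitochondrial leucyl-tRNA synthetase gene, had 117 and 76 against 54 and 44. None of the 3 was called by limma or edgeR (0 at an unadjusted p under 0.05 in limma), where limma called 0.803% of all genes higher and 4.41% lower and edgeR 1.64% and 4.02%, so that the count says nothing particular about them. Gm15564 had 1 read in each mitochondria library and was not tested.

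Of the 21 genes with at most 1 normalised count in both non-mitochondrial libraries, at least 3 reads in both mitochondria libraries and no mitochondrial match, 4 that are no members are given here, chosen after their values were seen. Apoa4, an apolipoprotein, had 233 and 28 normalised counts in mitochondria against 1 and 0. Uroc1, the urocanase of histidine breakdown, had 117 and 28 against 1 and 0, and Baat, which conjugates bile acids, had 50 and 21 against 1 and 1. The cardiac actin Actc1 had 25 and 117 against 0 and 1.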
